A study of Mus musculus with 7 samples.

Results

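The 33 genes described here build cholesterol and fatty acids or control how much of these lipids a cell holds. They were chosen as a list of gene symbols, with no measured value in the rule, and all 33 were found among the 21965 genes of the count table and passed the filter on low counts, as 15743 genes did. Cholesterol is made from acetyl-CoA through mevalonate and squalene, and the transcription factors SREBP1 and SREBP2 switch on the genes of this route and of fatty acid synthesis when sterols in the endoplasmic reticulum are low. The liver X receptors (LXR) sense oxysterols and switch on genes for cholesterol efflux. In the injured cord, macrophages take up cholesterol-rich myelin debris, and oligodendrocytes and Schwann cells make cholesterol for myelin. REV-ERB proteins, which are encoded by direct targets of the clock factor BMAL1, are known to act on sterol and fatty acid genes in other tissues.

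RNASeq was done on the 5 mm spinal cord segment around the epicenter of a moderate T9 contusion (50 kdyn) at dpi 3, with 7 libraries from 7 young adult mice. The 3 libraries labelled *Bmal1*-/- came from 2 females (replicates 1 and 2) and 1 male carrying the germline B6.129-Arntltm1Bra/J allele in every cell, and the 4 WT libraries came from 2 female (replicates 1 and 2) and 2 male (replicates 3 and 4) C57BL/6 mice. Both groups had the injury, so the comparison is between genotypes within injured tissue and not between injured and uninjured cord. Most WT mice were bought rather than being littermates of the mutants, so genotype cannot be told apart from differences between the 2 sources. Levels are given as CPM, that is counts scaled by library size and TMM factors, and differences as the log2 fold change of *Bmal1*-/- over WT from the quasi-likelihood test of edgeR, adjusted by the Benjamini-Hochberg method over all 15743 genes tested and a threshold of 0.05.

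Library totals ran from 38529644 to 44096737 counts, and the lowest count of any of the 33 genes in a library was 376. The targeted gene, *Arntl*, was counted at 22.5 to 24.2 CPM across libraries labelled *Bmal1*-/- and at 11.9 to 15.3 CPM in WT, a higher level than the label alone would give (log2 fold change 0.77, adjusted p = 0.0155, edgeR). A count over the whole gene does not show whether the deleted part is read, and an antisense gene, *Gm45355*, overlaps *Arntl*. The genes for the REV-ERB proteins were far lower in the libraries labelled *Bmal1*-/-, with *Nr1d1* at 5.31, 5.41 and 7.28 CPM against 36.4, 36.8, 29.2 and 34.4 CPM in WT, and *Nr1d2* at 9.63, 11.7 and 13.1 CPM against 67.3, 85.2, 61.98 and 80.5 CPM (log2 fold changes −2.51 and −2.68, adjusted p = 0.000456 for both, edgeR). On the leading principal components, WT replicate 3 lay away from the rest of its group. On the second component WT replicate 4, at 7.23, also lay apart from WT replicates 1 and 2, both at −32.4. Markers of spinal cord tissue were present in every library, with the summed level of *Hoxc8*, *Hoxc9*, *Hoxa9*, *Snap25*, *Gfap* and *Mbp* between 21013 and 27981 CPM.

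None of the 33 genes passed the threshold in edgeR in either direction, against 0.915% of all genes tested that passed as lower in the libraries labelled *Bmal1*-/- and 0.654% that passed as higher. At an unadjusted p under 0.05 there were 13 lower genes and 0 higher ones, 39.4% of the 33, where the shares over all genes were 12.2% lower and 8.64% higher. In 13 genes every library labelled *Bmal1*-/- lay below every WT library, against 13.5% of all genes, and in 1 gene, *Acaca*, every such library lay above, against 13.4% of all genes. DESeq2 called 3 of the 33 as lower, namely *Scd1* (adjusted p = 0.000678), *Idi1* (adjusted p = 0.00486) and *Fdps* (adjusted p = 0.0358), and 0 as higher, where it called 5.63% of all genes lower and 3.5% higher. Limma-voom called 0 of the 33 in either direction, against 0.73% of all genes lower and 0.578% higher. The differences were small: the median log2 fold change of the 33 genes was −0.11, a level 7.56% lower, beside −0.0057 over all genes tested.

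That median depended on single libraries. It was −0.06 without *Bmal1*-/- replicate 2 and −0.08 without WT replicate 2. At an unadjusted p under 0.05, the count of lower genes went from 13 to 4 without *Bmal1*-/- replicate 2. Without *Bmal1*-/- replicate 1 that count was 7. The share of all genes at this cutoff was not recorded for these fits, so the drops cannot be set against a background.

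The lower values lay mostly in the enzymes of cholesterol synthesis, which are 18 of the 33 genes and 10 of the 13 that were lower at an unadjusted p under 0.05. Of these 18 enzymes from acetoacetyl-CoA to cholesterol, 17 had a log2 fold change below 0, against 51.1% of all genes tested. In 11 of them every library labelled *Bmal1*-/- lay below every WT library, against 13.5% of all genes. The median log2 fold change of the 18 enzymes was −0.20. The 5 genes of SREBP control had a median of −0.08 and the 5 genes of fatty acid synthesis a median of −0.05. For the 5 genes of LXR sensing, efflux and oxysterol synthesis the median was −0.02. These medians are descriptions of lists chosen with earlier results known, and the differences between them were not tested.

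**Figure D1:**
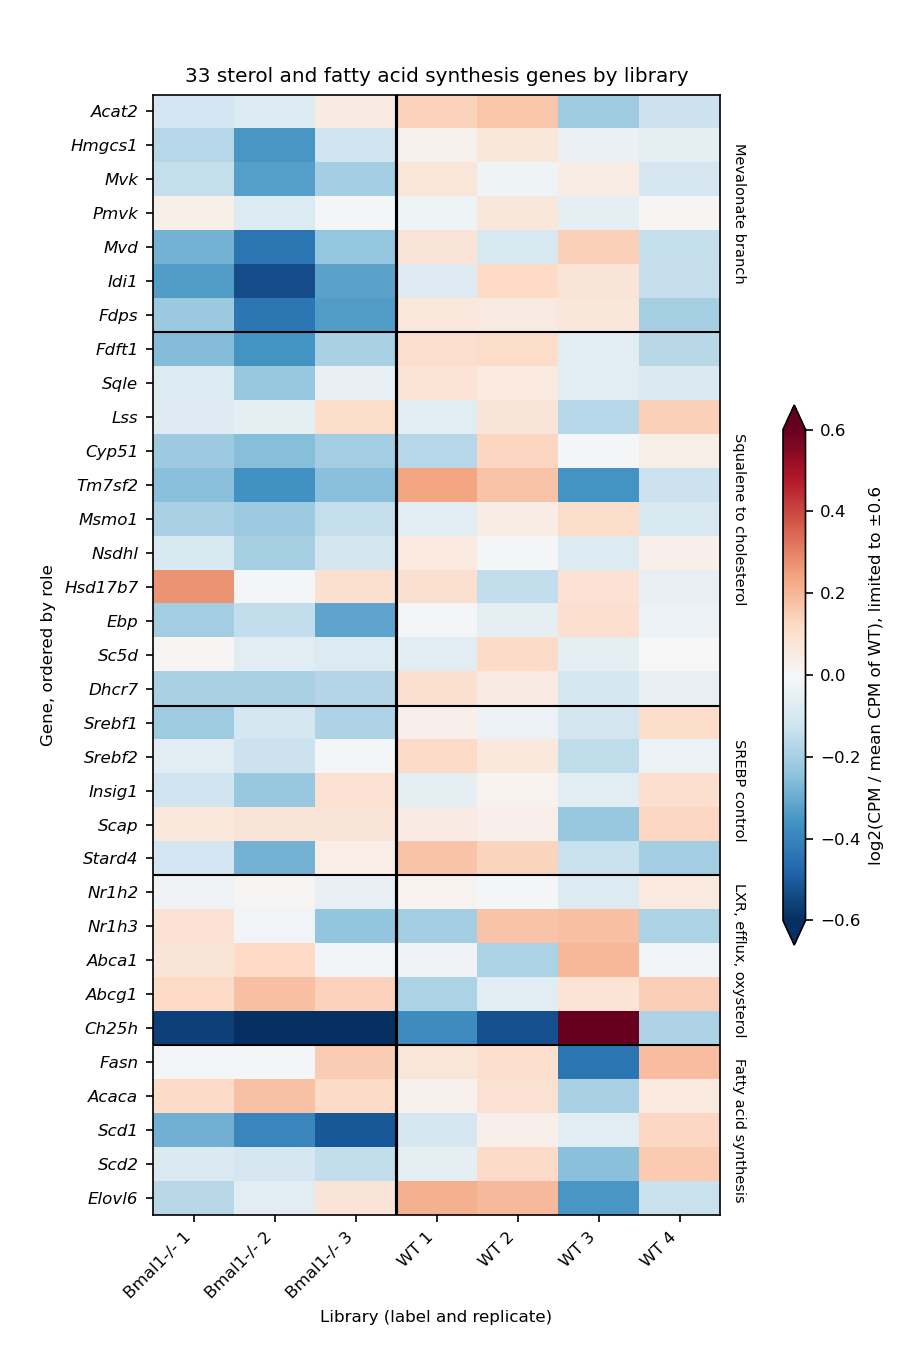
Each row is a gene, grouped by role, and each column a library; the color is log2 of the CPM over the mean CPM of WT, limited to ±0.6. Blue cells of lower level fill the 3 *Bmal1*-/- columns for most sterol enzymes, with the deepest blue in replicate 2 for *Idi1*, *Fdps* and *Mvd*, while *Ch25h* is highest in WT replicate 3.

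Promoter sequences are shown for the 4 genes with the smallest p that have an entry in the RefSeq promoter table, and for *Hmgcs1*, added after its motif was seen, because sterol genes are known to be switched on by SREBP together with NF-Y from sites near the start. In the RefSeq promoters of GRCm38.p6, a window from 250 bases before to 50 bases after each start was held for 26 of the 33 genes. Both strands were searched, and capitals mark the NF-Y box (CCAAT, which reads ATTGG on the other strand) and the SREBP element (TCACNCCAC). Bases that GENCODE annotates as untranslated were left off the ends.
Idi1, chr13:8885356-8885500, plus strand: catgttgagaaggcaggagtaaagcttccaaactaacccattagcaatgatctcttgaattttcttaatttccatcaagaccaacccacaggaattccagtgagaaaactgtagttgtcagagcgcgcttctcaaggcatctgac
Mvd, chr8:122443423-122443672, minus strand: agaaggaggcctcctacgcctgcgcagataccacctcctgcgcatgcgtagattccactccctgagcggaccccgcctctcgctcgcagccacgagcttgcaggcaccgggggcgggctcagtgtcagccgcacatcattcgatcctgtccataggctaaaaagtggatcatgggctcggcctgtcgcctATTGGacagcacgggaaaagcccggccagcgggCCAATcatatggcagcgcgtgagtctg
Ebp, chrX:8193513-8193762, minus strand: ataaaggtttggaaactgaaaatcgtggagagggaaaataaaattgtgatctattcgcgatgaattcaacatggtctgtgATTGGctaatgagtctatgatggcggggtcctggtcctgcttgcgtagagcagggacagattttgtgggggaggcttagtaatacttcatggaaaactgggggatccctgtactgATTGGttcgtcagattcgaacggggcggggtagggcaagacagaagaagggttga
Mvk, chr5:114444061-114444268, plus strand: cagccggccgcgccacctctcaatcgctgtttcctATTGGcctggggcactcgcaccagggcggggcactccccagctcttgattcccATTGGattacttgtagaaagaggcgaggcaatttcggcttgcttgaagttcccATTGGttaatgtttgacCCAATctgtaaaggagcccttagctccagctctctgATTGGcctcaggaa
Hmgcs1, chr13:119690101-119690350, plus strand: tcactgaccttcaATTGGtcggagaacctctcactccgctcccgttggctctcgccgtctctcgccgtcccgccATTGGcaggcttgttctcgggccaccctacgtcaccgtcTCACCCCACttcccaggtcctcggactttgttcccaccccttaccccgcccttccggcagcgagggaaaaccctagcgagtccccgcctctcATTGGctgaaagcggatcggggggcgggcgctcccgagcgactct

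The SREBP element lay in the *Hmgcs1* promoter, 137 to 129 bases before the start, and in no other of the 26 promoters, against 1.24% of all 32851 promoters in the table. The CCAAT box was found in 13 of the 15 sterol enzyme promoters (86.7%) and in 4 of the other 11, against 37.4% of all promoters. *Mvk* held 5 copies before its start and *Hmgcs1* held 3, whereas the 2 boxes of *Idi1* lie 45 to 41 and 14 to 10 bases before its RefSeq start, in the stretch left off above. The E-box CACGTG, the motif of the BMAL1 and CLOCK pair, was found in 5 of the 26 or 19.2% (*Hsd17b7*, *Sc5d*, *Insig1*, *Scap* and *Abca1*), against 7.15% of all promoters. The REV-ERB element TAGGTCA was found in *Dhcr7*, against 2.61%, and the LXR element, 2 AGGTCA copies spaced by 4 bases, in none, against 0.0152%. Matches are descriptions of letters in this window and are not shown here to be bound.

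The mevalonate branch runs from acetyl-CoA to farnesyl diphosphate, and 5 of its 7 genes did not overlap between the groups, all lower in the libraries labelled *Bmal1*-/-, against 13.5% of all genes. *Hmgcs1* (chr13:119690379-119708260, ENSMUSG00000093930) encodes the cytosolic synthase that makes HMG-CoA. Its level was 305, 269.7 and 316 CPM in the 3 libraries labelled *Bmal1*-/- and 349, 359, 334 and 330.5 CPM in the 4 WT libraries. Group averages of 297 ± 24.2 CPM (SD, n = 3) for *Bmal1*-/- and 343 ± 13.5 CPM (SD, n = 4) for WT gave a log2 fold change of −0.21 (SE 0.08, unadjusted p = 0.0331, adjusted p = 0.209, edgeR). Replicate 2 was the lowest of the libraries labelled *Bmal1*-/-, and the WT libraries spanned only 29.0 CPM. *Mvk*, mevalonate kinase, stood at 30.3, 26.6 and 29.1 CPM against 35.2, 32.95, 34.6 and 31.3 CPM. On average this was 28.7 ± 1.89 CPM (SD, n = 3) and 33.5 ± 1.76 CPM (SD, n = 4), with a log2 fold change of −0.22 (SE 0.074, unadjusted p = 0.0178, adjusted p = 0.173, edgeR). The highest library labelled *Bmal1*-/- lay just under the lowest WT library.

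*Mvd*, the decarboxylase that yields isopentenyl diphosphate, was at 22.7, 20.4 and 23.6 CPM across libraries labelled *Bmal1*-/- and at 29.2, 25.9, 30.5 and 25.04 CPM in WT. Averaged by genotype, 22.2 ± 1.61 CPM (SD, n = 3) stood against 27.7 ± 2.61 CPM (SD, n = 4), for a log2 fold change of −0.31 (SE 0.096, unadjusted p = 0.0125, adjusted p = 0.151, edgeR). *Idi1* (ENSMUSG00000058258, chr13:8885501-8892451), the isomerase of isopentenyl diphosphate, had the smallest p of the 33 genes. It was counted at 63.9, 55.8 and 64.5 CPM across libraries labelled *Bmal1*-/- and at 76.5, 87.7, 85.3 and 73.4 CPM in WT, so the highest of the former was 8.84 CPM below the lowest of the latter. Group averages of 61.4 ± 4.86 CPM (SD, n = 3) for *Bmal1*-/- and 80.7 ± 6.84 CPM (SD, n = 4) for WT gave a log2 fold change of −0.39 (SE 0.088, unadjusted p = 0.0025, adjusted p = 0.0797, edgeR). *Fdps*, which joins the isoprene units into farnesyl diphosphate, was counted at 21.2, 18.4 and 19.6 CPM against 25.9, 25.7, 25.9 and 21.6 CPM. On average this was 19.7 ± 1.43 CPM (SD, n = 3) and 24.8 ± 2.15 CPM (SD, n = 4), with a log2 fold change of −0.33 (SE 0.094, unadjusted p = 0.00955, adjusted p = 0.138, edgeR). WT replicate 4 lay near the libraries labelled *Bmal1*-/-, while the other WT libraries lay within 0.232 CPM of each other. The antisense gene *Gm48574* overlaps *Idi1*, *Gm48342* overlaps *Hmgcs1* and *Gm43738* overlaps *Fdps* on the same strand, so part of these counts may belong to the partner gene. *Acat2*, which makes acetoacetyl-CoA, and *Pmvk*, phosphomevalonate kinase, overlapped between the groups, with log2 fold changes of −0.05 and −0.02.

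**Figure D2:**
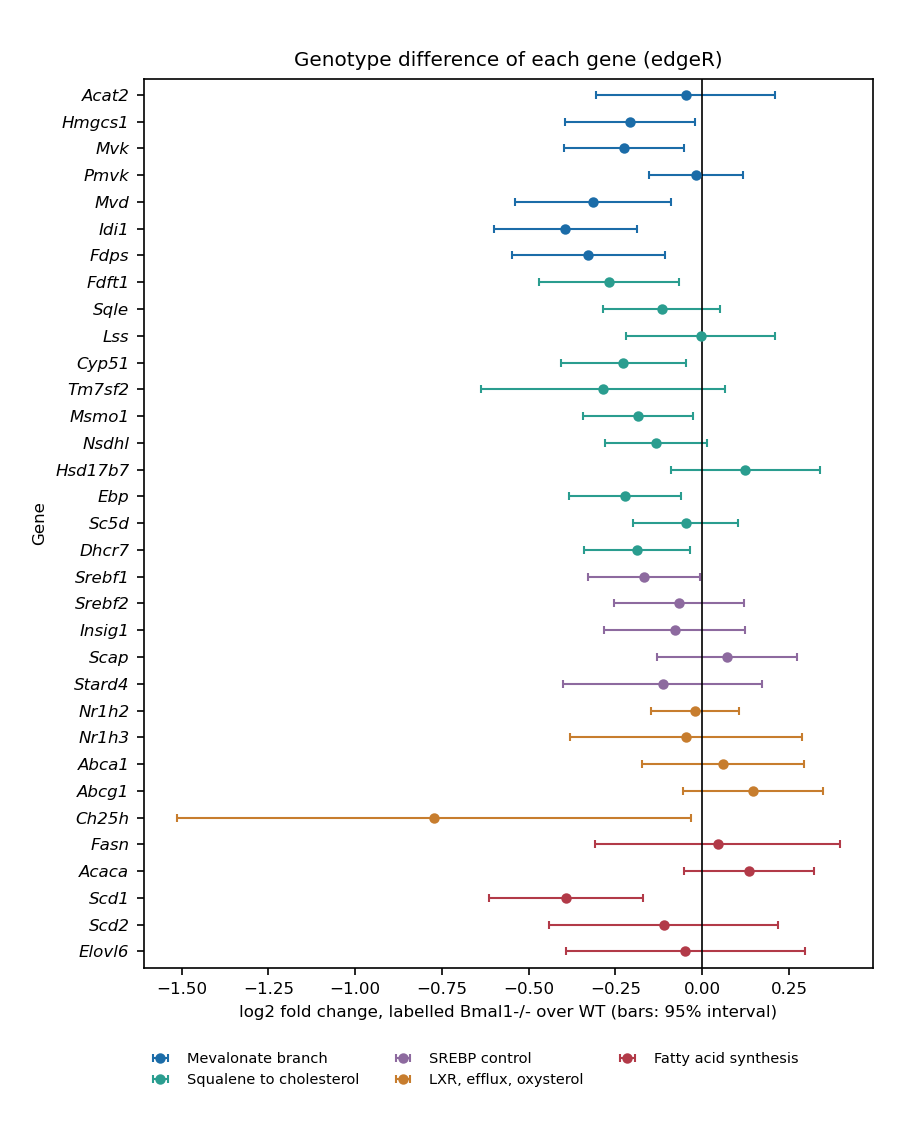
Points are the log2 fold change of *Bmal1*-/- over WT for each of the 33 genes and bars its 95% interval from edgeR, colored by role; intervals are per gene and not adjusted over genes. For 13 genes the interval lies below 0, with *Idi1* at −0.39 and *Scd1* at −0.39, and no interval lies above 0.

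From squalene to cholesterol there are 11 enzymes in the list. In 6 of them every library labelled *Bmal1*-/- lay below every WT library, against 13.5% of all genes. *Fdft1*, squalene synthase, was at 91.8, 85.6 and 96.1 CPM across libraries labelled *Bmal1*-/- and at 118, 118, 105 and 97.9 CPM in WT. The genotype averages, 91.1 ± 5.26 CPM (SD, n = 3) and 109.9 ± 10.03 CPM (SD, n = 4), differed by a log2 fold change of −0.27 (SE 0.086, unadjusted p = 0.0155, adjusted p = 0.164, edgeR). WT replicate 4 was closest to the libraries labelled *Bmal1*-/-, and *Ctsb*, an abundant gene on the opposite strand, overlaps *Fdft1*. *Cyp51*, the demethylase of lanosterol, stood at 100.3, 97.7 and 101 CPM against 103, 128, 115 and 119.6 CPM. On average this was 99.6 ± 1.65 CPM (SD, n = 3) and 117 ± 10.1 CPM (SD, n = 4), with a log2 fold change of −0.23 (SE 0.077, unadjusted p = 0.0206, adjusted p = 0.181, edgeR). Its libraries labelled *Bmal1*-/- were tightly grouped, and WT replicate 1 lay close above them. *Msmo1*, the oxygenase that acts on methyl sterols, was at 97.04, 95.3 and 101 CPM against 106, 115, 119.7 and 104 CPM. Averaged by genotype, 97.7 ± 2.705 CPM (SD, n = 3) stood against 111 ± 7.44 CPM (SD, n = 4), for a log2 fold change of −0.18 (SE 0.068, unadjusted p = 0.0276, adjusted p = 0.196, edgeR).

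*Ebp*, the sterol isomerase of the later steps, was counted at 34.5, 35.98 and 32.002 CPM across libraries labelled *Bmal1*-/- and at 39.6, 38.3, 42.7 and 38.9 CPM in WT. The genotype averages, 34.2 ± 2.01 CPM (SD, n = 3) and 39.9 ± 1.96 CPM (SD, n = 4), differed by a log2 fold change of −0.22 (SE 0.069, unadjusted p = 0.0131, adjusted p = 0.154, edgeR). Unlike most of the other enzymes, its lowest library was *Bmal1*-/- replicate 3. *Dhcr7*, the reductase that completes cholesterol, was at 39.1, 39.1 and 39.6 CPM against 47.8, 46.3, 41.6 and 43.2 CPM. Group averages of 39.3 ± 0.283 CPM (SD, n = 3) for *Bmal1*-/- and 44.7 ± 2.801 CPM (SD, n = 4) for WT gave a log2 fold change of −0.19 (SE 0.065, unadjusted p = 0.0217, adjusted p = 0.183, edgeR). *Nsdhl*, a dehydrogenase that helps remove methyl groups from sterols, did not overlap either but had an unadjusted p of 0.0686, with 30.1 to 32.4 CPM across libraries labelled *Bmal1*-/- and 32.7 to 36.0 CPM in WT. The other 5 enzymes overlapped between the groups. Their log2 fold changes were −0.29 for *Tm7sf2*, a sterol reductase, −0.12 for *Sqle*, squalene epoxidase, −0.05 for *Sc5d*, a sterol desaturase, −0.0048 for *Lss*, lanosterol synthase, and 0.12 for *Hsd17b7*, a sterol ketone reductase and the 1 enzyme of the 18 with a value above 0.

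**Figure D3:**
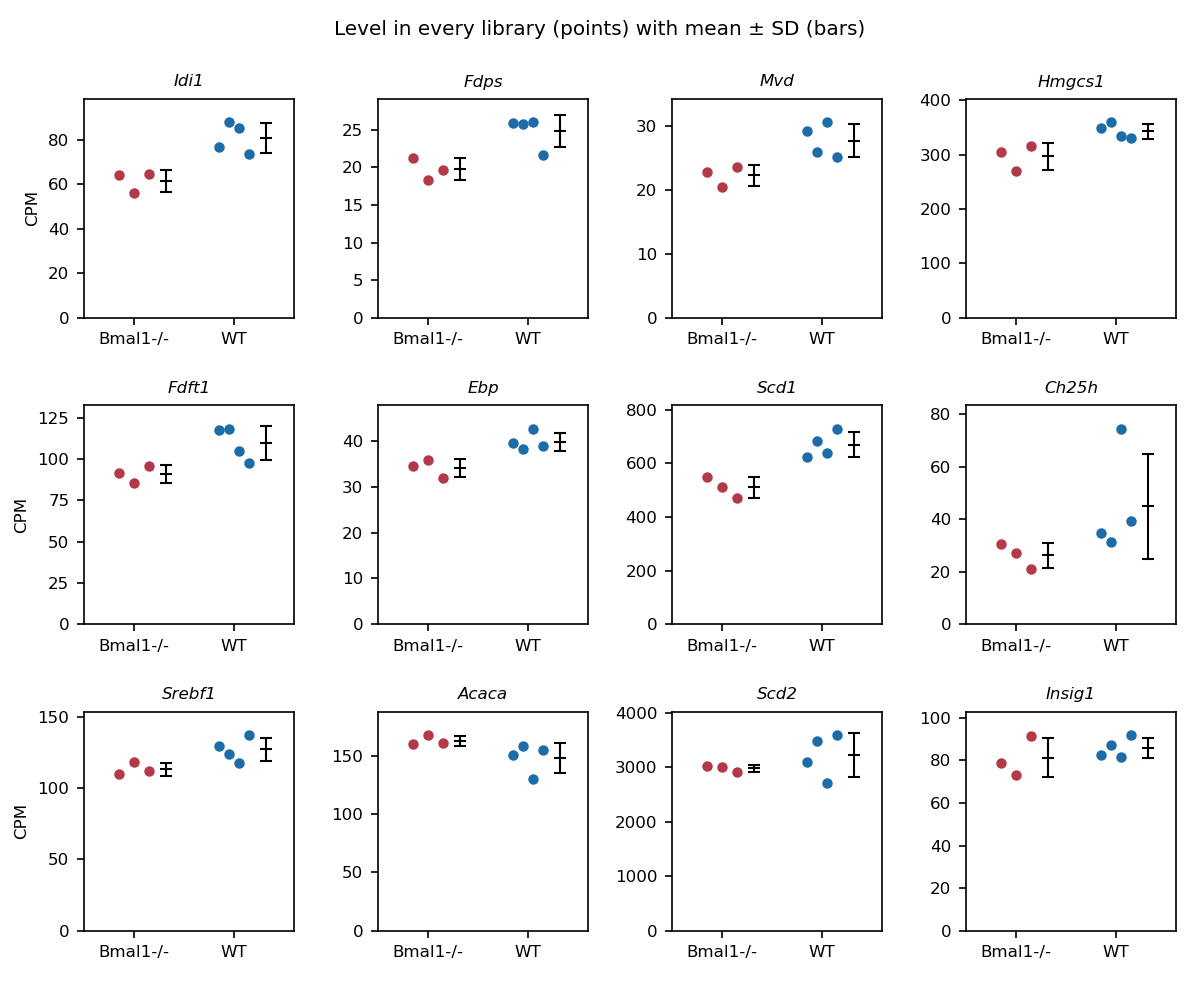
CPM of 12 genes in each library labelled *Bmal1*-/- (red) and each WT library (blue), in replicate order, with mean ± SD in black on axes that start at 0. The groups do not overlap for *Idi1*, *Fdps*, *Mvd*, *Hmgcs1*, *Fdft1*, *Ebp*, *Scd1*, *Ch25h* and *Acaca*, and overlap for *Srebf1*, *Scd2* and *Insig1*.

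SREBP control was described by 5 genes, and all 5 overlapped between the groups. *Srebf1*, which encodes SREBP1, was at 109.6, 118 and 112 CPM across libraries labelled *Bmal1*-/- and at 129.7, 124, 118 and 137 CPM in WT. On average this was 113 ± 4.39 CPM (SD, n = 3) and 127 ± 8.26 CPM (SD, n = 4), with a log2 fold change of −0.17 (SE 0.069, unadjusted p = 0.0429, adjusted p = 0.229, edgeR). The overlap came from *Bmal1*-/- replicate 2 and WT replicate 3, and *Rai1* on the opposite strand overlaps this gene. *Srebf2*, which encodes SREBP2, the main regulator of sterol genes, stood at 169, 162 and 176 CPM against 191, 185, 159 and 172 CPM. The genotype averages, 169 ± 7.05 CPM (SD, n = 3) and 177 ± 14.3 CPM (SD, n = 4), differed by a log2 fold change of −0.066 (SE 0.08, unadjusted p = 0.431, adjusted p = 0.614, edgeR). *Insig1* holds the SREBP escort in the endoplasmic reticulum and is itself an SREBP target, and it was counted at 79.02, 73.3 and 91.3 CPM against 82.4, 87.1, 81.8 and 91.9 CPM. Averaged by genotype, 81.2 ± 9.19 CPM (SD, n = 3) stood against 85.8 ± 4.703 CPM (SD, n = 4), for a log2 fold change of −0.079 (SE 0.087, unadjusted p = 0.39, adjusted p = 0.579, edgeR). *Bmal1*-/- replicates 1 and 2 lay below every WT library for *Insig1*, and replicate 3 lay within the WT range. *Scap*, the escort, had a log2 fold change of 0.07, and *Stard4*, a sterol carrier and SREBP target, had −0.11.

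Of the LXR genes, *Nr1h2* (LXR beta) was nearly level across all 7 libraries, at 61.2, 62.4 and 59.99 CPM in those labelled *Bmal1*-/- and 63.002, 61.8, 58.7 and 64.7 CPM in WT. The genotype averages, 61.2 ± 1.21 CPM (SD, n = 3) and 62.1 ± 2.52 CPM (SD, n = 4), differed by a log2 fold change of −0.021 (SE 0.054, unadjusted p = 0.713, adjusted p = 0.83, edgeR). *Nr1h3* (LXR alpha), which macrophages express, was the less abundant receptor per length, with a mean WT level of 4.47 CPM per kb of exons against 18.5 CPM per kb for *Nr1h2*. Its level was 11.9, 11.1 and 9.54 CPM against 9.72, 12.6, 12.7 and 9.83 CPM. Averaged by genotype, 10.9 ± 1.22 CPM (SD, n = 3) stood against 11.2 ± 1.68 CPM (SD, n = 4), for a log2 fold change of −0.048 (SE 0.14, unadjusted p = 0.748, adjusted p = 0.854, edgeR). Among their targets, the efflux transporters *Abca1* and *Abcg1* had log2 fold changes of 0.06 and 0.15, and both overlapped between the groups.

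*Ch25h*, which hydroxylates cholesterol to an oxysterol and is made by activated macrophages, had the log2 fold change farthest from 0 among the 33 genes and also the largest SE. It was at 30.4, 27.3 and 21.1 CPM across libraries labelled *Bmal1*-/- and at 34.6, 31.2, 74.4 and 39.5 CPM in WT. The genotype averages, 26.3 ± 4.73 CPM (SD, n = 3) and 44.9 ± 19.97 CPM (SD, n = 4), differed by a log2 fold change of −0.77 (SE 0.32, unadjusted p = 0.0428, adjusted p = 0.229, edgeR). WT replicate 3 held 74.4 CPM, above the 31.2 to 39.5 CPM of the other WT libraries, and without it the log2 fold change was −0.42 (adjusted p = 0.152, edgeR). The antisense gene *Gm26902* overlaps *Ch25h*. The summed level of 10 macrophage markers was also highest in WT replicate 3, at 4803 CPM against 2446 to 3308 CPM in the other WT libraries and 2495 to 3476 CPM across libraries labelled *Bmal1*-/-. The part of macrophages in this value was not tested.

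Fatty acid synthesis gave no common direction over all 7 libraries. *Acaca*, which makes malonyl-CoA, was the 1 gene of the 33 with every library labelled *Bmal1*-/- above every WT library, at 161, 168 and 161 CPM against 151, 158, 129.9 and 155 CPM. Group averages of 163 ± 4.12 CPM (SD, n = 3) for *Bmal1*-/- and 148 ± 12.7 CPM (SD, n = 4) for WT gave a log2 fold change of 0.14 (SE 0.08, unadjusted p = 0.131, adjusted p = 0.339, edgeR). *Fasn*, the synthase that builds palmitate, ranged from 316 to 354 CPM across libraries labelled *Bmal1*-/- and from 235 to 362 CPM in WT, with a log2 fold change of 0.04. *Elovl6*, which lengthens palmitate, overlapped as well, with a log2 fold change of −0.05. Only *Fasn* changed sign when WT replicate 3 was left out, the library with the lowest WT level of *Fasn*, *Elovl6*, *Scd2* and *Acaca*. Without that library the log2 fold changes were −0.08 for *Fasn*, −0.15 for *Elovl6*, −0.41 for *Scd1* and −0.19 for *Scd2*. The gene that makes malonyl-CoA stayed above 0, at 0.08.

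*Scd1* (ENSMUSG00000037071, chr19:44394455-44407879) encodes a desaturase that makes monounsaturated fatty acids and was counted at 549, 512 and 471 CPM across libraries labelled *Bmal1*-/-. Its WT level was 626, 685, 639.9 and 729 CPM. On average this was 511 ± 39.3 CPM (SD, n = 3) and 670.1 ± 46.96 CPM (SD, n = 4), with a log2 fold change of −0.39 (SE 0.095, unadjusted p = 0.00387, adjusted p = 0.0955, edgeR). *Scd1* was the 1 gene of the 33 that passed edgeR's threshold when a library was left out, with a log2 fold change of −0.41 and an adjusted p of 0.0491 without WT replicate 3. Its neighbor and close paralog *Scd2*, the main desaturase of the nervous system, was at 3029, 2994 and 2904 CPM against 3088, 3484, 2699 and 3585 CPM. The genotype averages, 2976 ± 64.6 CPM (SD, n = 3) and 3214 ± 405 CPM (SD, n = 4), differed by a log2 fold change of −0.11 (SE 0.14, unadjusted p = 0.455, adjusted p = 0.635, edgeR). How reads that the 2 paralogs share were counted is not given in the sources used here, so both levels are uncertain to that extent.

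**Figure D4:**
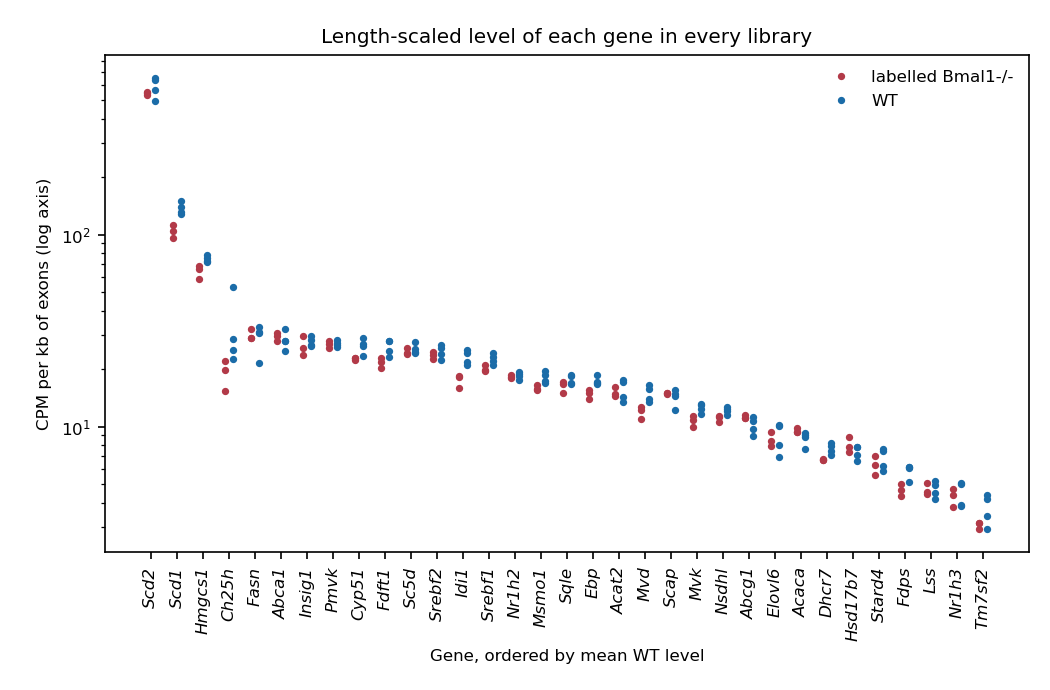
CPM per kb of exon length, on a log axis, for the 33 genes in every library, ordered by the mean WT level; red points are libraries labelled *Bmal1*-/- and blue points WT. *Scd2* lies at 588 CPM per kb in WT, above *Scd1* at 137 and *Hmgcs1* at 74.7, and *Tm7sf2* is lowest at 3.75.

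Scaled by the length of all annotated exons, the mean WT levels of the 33 genes covered a wide range. *Scd2* was the most abundant at 588 CPM per kb, followed by *Scd1* at 137 CPM per kb and *Hmgcs1* at 74.7 CPM per kb, and these 3 did not overlap one another in any library. *Ch25h* at 32.4, *Fasn* at 29.1, *Abca1* at 28.2, *Insig1* at 27.7 and *Pmvk* at 27.1 CPM per kb followed, and the ranges of these neighbors overlapped in WT. The least abundant were *Lss* at 4.72, *Nr1h3* at 4.47 and *Tm7sf2* at 3.75 CPM per kb, whose WT ranges also overlapped. Lengths sum all exons of a gene, so genes with long rarely used exons are set too low on this scale.

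Other genes of the same pathways were read for context from lists of 11, 14, 8 and 19 genes. Of 11 further genes of sterol synthesis and the SREBP pathway, 0 passed in edgeR in either direction, and 4 were lower and 1 higher at an unadjusted p under 0.05, against 12.2% and 8.64% of all genes. The 3 with the smallest p were *Aacs*, which supplies acetoacetyl-CoA from ketone bodies (log2 fold change −0.33, adjusted p = 0.102, edgeR), *Tmem97*, a sterol-responsive membrane protein (−0.50, adjusted p = 0.138), and *Lbr*, a nuclear membrane protein with sterol reductase activity (−0.31, adjusted p = 0.16). Of these 3, DESeq2 called *Aacs* (adjusted p = 0.0111) and *Tmem97* (adjusted p = 0.0347) as lower, against 5.63% of all genes. All 3 were lower in every library labelled *Bmal1*-/- than in any WT library, against 13.5% of all genes. They were picked by their p, so these counts are not shares of the list.

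Of 14 genes of cholesterol storage, transport and breakdown, 1 passed and it fell, against 0.915% of all genes that passed as lower. *Cyp39a1*, an oxysterol hydroxylase of bile acid synthesis, was at 9.12, 9.54 and 7.92 CPM across libraries labelled *Bmal1*-/- and at 12.7, 14.01, 12.98 and 12.7 CPM in WT (log2 fold change −0.56, SE 0.096, adjusted p = 0.0416, edgeR). *Cyp7b1*, the other oxysterol hydroxylase of the list, was named after its values were seen, and stood at 6.35, 6.87 and 8.502 CPM against 11.2, 12.2, 10.2 and 12.2 CPM (log2 fold change −0.66, adjusted p = 0.0611, edgeR). Its adjusted p was 0.000265 in DESeq2 and 0.0281 in edgeR without WT replicate 3, and it ran from 0.000265 to 0.452 over the alternatives. The groups did not overlap for either gene.

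Among 8 further LXR targets, 1 passed and it fell, against 0.915% of all genes that passed as lower. The list had no common direction, with 4 log2 fold changes below 0 and 4 above, and a median of 0.0049. *Pltp*, the phospholipid transfer protein, was at 79.1, 81.7 and 77.8 CPM across libraries labelled *Bmal1*-/- and at 103, 105, 107 and 101 CPM in WT (log2 fold change −0.39, SE 0.051, adjusted p = 0.0159, edgeR), with an overlapping antisense gene, *Ctsa*. Of 19 further genes of fatty acid synthesis and activation, 1 passed and it rose, against 0.654% of all genes that passed as higher. *Acsl3*, which activates long fatty acids as acyl-CoA, was at 317, 322 and 309.6 CPM against 154, 175, 119 and 177 CPM (log2 fold change 1.02, SE 0.14, adjusted p = 0.0183, edgeR) or 2.03 times the WT level, and *Utp14b* overlaps it on the same strand. Each of these 3 calls, *Cyp39a1*, *Pltp* and *Acsl3*, was lost in edgeR whenever 1 of the libraries labelled *Bmal1*-/- was left out, and when WT replicate 1 was, that of *Pltp* also without WT replicate 2, and that of *Cyp39a1* also without WT replicate 2 or 4 and with sex as a covariate. Their log2 fold changes with single libraries left out stayed within −0.62 to −0.49 for *Cyp39a1*, −0.41 to −0.38 for *Pltp* and 0.91 to 1.08 for *Acsl3*.

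Cell type markers were set beside the sterol genes, since tissue RNA is a mixture and fewer cells of a type cannot be told apart from less RNA per cell. The summed level of 4 Schwann cell markers (*Prx*, *Pmp2*, *Drp2* and *Cldn19*) was 67.4 to 73.2 CPM across libraries labelled *Bmal1*-/-. In WT it was 77.5 to 149.9 CPM. Most of the sum in each library was *Drp2* (log2 fold change −0.36, edgeR), while *Prx* and *Cldn19* had log2 fold changes of −3.04 and −3.18. All 3 that were tested lay lower in every library labelled *Bmal1*-/-, against 13.5% of all genes. None was called in edgeR, and all 3 were lower at an unadjusted p under 0.05, against 12.2% of all genes. *Prx*, which encodes periaxin, a protein of myelinating Schwann cells, was at 2.06, 3.296 and 1.62 CPM against 23.7, 37.7, 10.4 and 5.22 CPM. The median log2 level of the 18 sterol enzymes relative to WT was −0.18, −0.22 and −0.16 in the libraries labelled *Bmal1*-/-, and it was 0.06 and 0.06 in WT replicates 1 and 2, which held the most *Prx*, and −0.05 and −0.07 in WT replicates 3 and 4. WT replicates 1 and 2 were also the females and 3 and 4 the males, so this split cannot be told apart from sex. The part of Schwann cells in the sterol gene values was not tested. The 13 oligodendrocyte markers summed to 25233 to 30804 CPM across libraries labelled *Bmal1*-/- and to 25260 to 36489 CPM in WT, ranges that overlap.

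**Figure D5:**
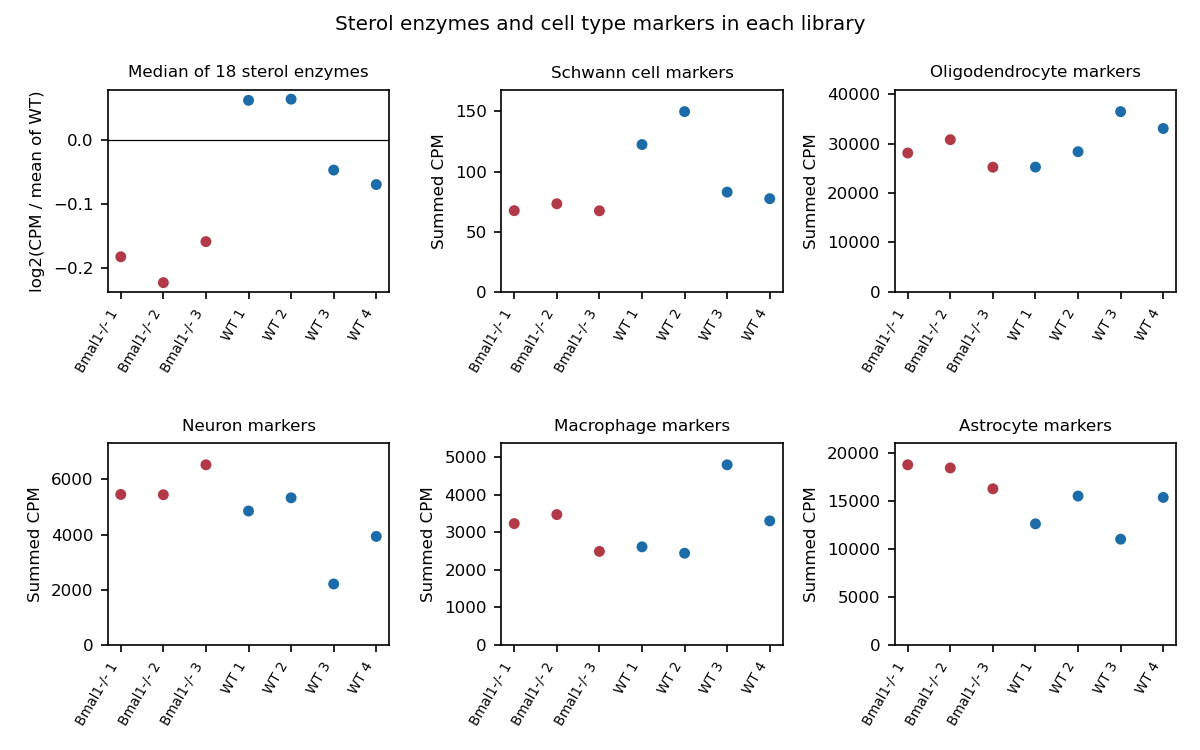
The first panel plots, for each library, the median over 18 sterol enzymes of log2 of the CPM over the mean CPM of WT; the others plot summed CPM of marker genes on axes from 0, red for libraries labelled *Bmal1*-/- and blue for WT. Sterol enzymes are lowest in the 3 libraries labelled *Bmal1*-/- (−0.22 to −0.16), Schwann cell markers are highest in WT replicates 1 and 2, and WT replicate 3 is lowest in neuron and highest in macrophage markers.

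Neuron markers summed to 5443 to 6527 CPM across libraries labelled *Bmal1*-/- and to 2210 to 5331 CPM in WT, with the lowest value in WT replicate 3. Astrocyte markers summed to 16295 to 18797 CPM against 11037 to 15537 CPM, so the sums of these 2 lists were higher in every library labelled *Bmal1*-/-. Most of the astrocyte sum was *Gfap*, and the list was mixed: 4 of its 9 genes were higher in every library labelled *Bmal1*-/-, *Aldh1l1* was lower in every one, 4 genes overlapped, and the median log2 fold change was 0.02. Over all genes, 13.4% were higher and 13.5% lower in every such library. None of the 9 astrocyte or 7 neuron markers passed in edgeR. At an unadjusted p under 0.05, 2 astrocyte markers were lower, 2 higher and 1 neuron marker higher. The shares over all genes were 12.2% lower and 8.64% higher. Microglia markers overlapped, at 951.9 to 1099 CPM against 956 to 1236 CPM. Fibroblast markers overlapped only through *Bmal1*-/- replicate 2, at 486, 2330.1 and 407 CPM against 1216 to 1926 CPM. Endothelial markers summed to 364 to 424 CPM against 438 to 724 CPM, with 1 of 7 called lower in edgeR, against 0.915% of all genes, and 4 of 7 lower in every library labelled *Bmal1*-/-, against 13.5% of all genes. Skeletal muscle markers summed to 57.8 to 64.0 CPM against 77.1 to 95.3 CPM. Of these 6 markers, 4 were called lower in edgeR, against 0.915% of all genes, and the median log2 fold change was −2.99. *Acta1*, skeletal muscle actin, was at 1.91, 1.39 and 2.11 CPM against 21.7, 19.2, 19.2 and 8.52 CPM, and *Ckm*, muscle creatine kinase, at 0.305, 0.464 and 0.558 CPM against 4.87, 4.01, 2.82 and 9.51 CPM. The sums differ less than these genes because they include *Pvalb*, which neurons also express and which held most of the sum in the libraries labelled *Bmal1*-/-, at 57.3, 52.5 and 58.01 CPM against 40.9, 50.4, 35.2 and 45.9 CPM in WT (log2 fold change 0.38, adjusted p = 0.165, edgeR). The adipocyte markers *Adipoq*, *Plin1*, *Cidec*, *Lep* and *Retn* were at or below 0.36 CPM in every library, so these defining markers of fat, a tissue that expresses *Scd1* and *Fasn* strongly, were at or near 0. The whole list of 7 adipocyte markers summed to 38.9 to 68.9 CPM across libraries labelled *Bmal1*-/- and to 12.2 to 41.4 CPM in WT, most of it in each library from *Plin4*, a lipid droplet gene (adjusted p = 0.175, edgeR). The parts of these other cell types in the values above were not tested.

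Sex was balanced differently in the groups, and with sex as a covariate 0 of the 33 genes passed in edgeR and 10 were lower at an unadjusted p under 0.05. A test of whether the genotype difference itself differed between the sexes gave 0 of 33 genes past the threshold, 6 at an unadjusted p under 0.05, and a lowest adjusted p of 0.400 (edgeR interaction term). That test rests on 1 male among the libraries labelled *Bmal1*-/-. The share of all genes at an unadjusted p under 0.05 was not recorded for it or for the fit with sex as a covariate. The counts of 6 and 10 therefore cannot be set against a background.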

How the data were processed

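RNASeq was done on 7 contused spinal cords (3 labelled *Bmal1*-/-, 4 WT), each from 1 mouse. Stranded poly-A libraries were checked by the authors with FastQC 0.10.1, aligned to GRCm38 (mm10) with Tophat2 and summarised as counts for each gene with HTSeq 0.10.0; the annotation release and the strand setting are not given in the sources used here. They deposited raw counts without normalization. The authors tested genotype with DESeq2.

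From these counts, genes were filtered with filterByExpr, scaled with TMM and tested with edgeR 4.0.16 (quasi-likelihood, R 4.3.3), with Benjamini-Hochberg adjustment over 15743 genes and a threshold of 0.05. Alternatives were DESeq2 1.42.0, voom of limma 3.58.1, RLE and upper-quartile scaling, other filters, sex as covariate, a replicate block and each library left out. Same-numbered samples did not deviate together (correlations −0.22, 0.10 and −0.23), so numbers were not treated as pairs. Gene positions, overlaps and exon lengths came from GENCODE M21. Promoters came from RefSeq (GRCm38.p6). The 33 genes and all lists were chosen with earlier results of these data known. Named in full were genes past the threshold, otherwise the 12 with the smallest p, and 5 regulators; context genes past the threshold or else the 3 with the smallest p. Some genes that the lists hold are not reported here.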

Additional observations from a re-analysis of the deposited data

Results flagged for a closer look

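*Fdps* in WT replicate 4 was flagged because its level, 21.6 CPM, lay far from the other 3 WT libraries, which held 25.7 to 25.9 CPM; the gap was 0.947 of the group's range, above the critical value of Dixon's test for 4 samples at the 95% level. Chance flags about 1 in 20 such groups, and 42 genes were examined, of which 1 was flagged. Without WT replicate 4 the log2 fold change of *Fdps* was −0.39 (adjusted p = 0.107, edgeR) in place of −0.33.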

How the results depend on the processing

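The count of genes called lower was 0 in edgeR and 3 in DESeq2, and 0 to 1 with single libraries left out, the 1 being *Scd1* without WT replicate 3. No gene was called higher in any of these fits, and none was called in either direction with RLE or upper-quartile scaling, other filters, limma-voom or sex as a covariate. The median log2 fold change of the 33 genes ranged from −0.16 to −0.06 with single libraries left out, the value nearest 0 being that without *Bmal1*-/- replicate 2. Over all genes, edgeR called 144 as lower and 103 as higher, DESeq2 922 and 573, and edgeR without WT replicate 3 439 and 291, while edgeR without *Bmal1*-/- replicate 1 called 27 and 30, without *Bmal1*-/- replicate 3 30 and 43, and without WT replicate 1 40 and 41. With the replicate number as a block, 0 of the 33 genes and 0 of all genes passed. The median log2 fold change of the 33 was −0.12 in that fit. At an unadjusted p under 0.05, 5 of the 33 were lower, and the share over all genes was not recorded. The replicate numbers did not pair the samples. Over 42 named genes, 580 of 630 values from alternatives kept direction and side of the threshold, 21 kept direction and lost the call, 9 gained it, and 20 changed sign, all in genes near 0. *Lss* turned to 6.26e-05 with RLE scaling, 0.00066 in DESeq2, 0.0037 with sex as a covariate and 0.047 with the block, where *Nr1h2* turned to 0.00021. With single libraries left out the ranges were −0.067 to 0.046 for *Lss*, −0.15 to 0.027 for *Elovl6*, −0.046 to 0.013 for *Pmvk*, −0.12 to 0.035 for *Nr1h3*, −0.077 to 0.11 for *Fasn*, −0.11 to 0.0081 for *Acat2* and −0.0034 to 0.13 for *Abca1*. The causes were not tested. Of the 33 genes, 13 overlap another annotated gene, 9 of them on the opposite strand, so their counts are uncertain.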
